A study of Mus musculus with 24 samples.

Results

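Autophagy delivers cytoplasmic cargo to lysosomes, and 53 mouse genes of its machinery and of its control by the transcription factor TFEB and the kinase complex mTORC1 are described here. They were taken as a list of gene symbols and matched by Ensembl identifier to rows of the deposited count table. The matching used no measured value, but the list was drawn up with earlier results of these data known, so its shares beside the background are a description. All 53 were found among 55487 rows, and all 53 passed the filter on low counts that left 14099 genes for testing. By role they comprised 3 transcription factors, 6 genes of mTORC1 and its regulators, 5 of the ULK1 initiation complex, 5 of the PI3-kinase complex, 5 of phagophore growth, 5 ATG8 proteins, 7 of the conjugation machinery, 6 cargo receptors, 1 mitophagy kinase and 10 genes of fusion with lysosomes.

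The RNA was poly(A)-selected from co-cultures of bone-marrow-derived macrophages (BMDMs) and splenic lymphocytes, the lymphocytes being from mice that carried tumours of B16-F10-OVA, a mouse melanoma line expressing ovalbumin. The BMDMs were either Tmem175-/-, called knockout here, or WT. TMEM175 is a potassium channel of late endosomes and lysosomes. Each genotype was cultured in 4 conditions: with antigen of the tumour cells plus IL-18 at 500 pg/ml, with antigen plus IL-1β at 500 pg/ml, with antigen alone, and with no antigen. Every group had 3 libraries, 24 in all, numbered 1 to 3 as in the sample titles. The labels give no age of the mice, no genotype of the lymphocytes and no statement that the 3 libraries of a group came from separate mice or cultures, so p-values measure the spread between these libraries, which may be technical. The titles and the design name Tmem175 for the 12 knockout libraries, whereas the genotype field of 11 of them names other, consecutively numbered Tmem genes.

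In starved or stressed cells the ULK1 kinase complex and the PI3-kinase complex start a membrane cup, the phagophore, which grows with lipid from ATG2 and ATG9 proteins. Conjugation enzymes attach ATG8 proteins (LC3 and GABARAP) to that membrane, cargo receptors bind them, and the closed autophagosome fuses with lysosomes through the HOPS complex, RAB7 and SNARE proteins. TFEB, TFE3 and MITF switch on lysosomal and autophagy genes, and active mTORC1 on the lysosome surface keeps them out of the nucleus. In macrophages the same factors take part in the response to microbial products.

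TFEB, TFE3 and MITF bind DNA at the motif CACGTG, and at TCACGTGA most strongly, so the promoters of the genes were searched for both (RefSeq promoters on GRCm38.p6, 300-base windows around the transcription start; both motifs are their own reverse complement, and each TCACGTGA also holds a CACGTG). For 45 of the 53 genes the table held a promoter, 53 promoters in all. CACGTG was found in 6 of these 53 (11.3%), against 7.15% of all 32851 promoters, and TCACGTGA in 2 of 53 (3.77%), against 0.974%. The 6 genes were Vps33a, Atg3, Atg5, Atg7, Atg14 and Fnip1. The choice of 4 of the 6 to print covers genes that rose and genes that fell with antigen. Their promoters are shown 5′ to 3′ on the transcribed strand with the motif in capitals. They lie at chr5:123572966-123573265 (minus strand) for Vps33a, chr16:45158579-45158878 (plus strand) for Atg3, chr10:44268089-44268388 (plus strand) for Atg5 and chr14:47568385-47568684 (minus strand) for Atg14.
Vps33a: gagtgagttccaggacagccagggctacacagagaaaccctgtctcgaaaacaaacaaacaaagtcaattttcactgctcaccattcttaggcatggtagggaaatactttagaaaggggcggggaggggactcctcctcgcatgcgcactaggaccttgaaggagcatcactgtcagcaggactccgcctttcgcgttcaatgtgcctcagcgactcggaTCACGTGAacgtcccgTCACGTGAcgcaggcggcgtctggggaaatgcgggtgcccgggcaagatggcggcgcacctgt
Atg3: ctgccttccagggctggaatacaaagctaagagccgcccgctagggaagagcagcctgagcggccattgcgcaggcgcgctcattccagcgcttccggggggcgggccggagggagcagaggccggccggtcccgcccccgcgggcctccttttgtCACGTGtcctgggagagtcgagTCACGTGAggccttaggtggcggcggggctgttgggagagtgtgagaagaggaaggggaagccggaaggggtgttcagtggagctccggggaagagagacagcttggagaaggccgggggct
Atg5: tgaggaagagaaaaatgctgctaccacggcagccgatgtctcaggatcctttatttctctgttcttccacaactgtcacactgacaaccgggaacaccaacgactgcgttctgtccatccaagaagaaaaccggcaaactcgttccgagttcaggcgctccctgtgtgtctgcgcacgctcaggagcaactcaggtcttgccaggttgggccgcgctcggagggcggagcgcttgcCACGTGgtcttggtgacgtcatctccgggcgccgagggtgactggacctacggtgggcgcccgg
Atg14: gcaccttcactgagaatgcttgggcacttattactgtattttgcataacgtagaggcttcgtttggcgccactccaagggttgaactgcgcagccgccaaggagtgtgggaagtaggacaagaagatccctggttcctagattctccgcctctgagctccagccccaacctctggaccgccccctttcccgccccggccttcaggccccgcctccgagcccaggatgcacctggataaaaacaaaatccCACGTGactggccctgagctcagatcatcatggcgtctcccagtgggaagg

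Levels are CPM, the deposited counts scaled to a common library total with TMM factors, from 17744540 to 24898552 counts per library. Log2 fold changes are given ± SE and levels ± SD (n = 3). Each gene was tested with edgeR's quasi-likelihood test, and a gene is called, or said to have risen or fallen, at a Benjamini-Hochberg adjusted p under 0.05 over all 14099 genes of that comparison, with no minimum fold. Tmem175 itself was at 15.0, 14.1 and 14.6 CPM in knockout co-cultures without antigen, against 26.1, 25.5 and 24.4 CPM in WT. With antigen it was at 7.61, 8.75 and 8.12 CPM in the knockout, against 13.7, 16.3 and 15.7 CPM in WT, and it was lower in the knockout in all 4 conditions (log2 fold changes -0.91 to -0.79). Its exons overlap those of Dgkq on the opposite strand, and whether the counting used strand is not given in the sources used here. The summed level of 7 macrophage markers was 11605 to 24119 CPM per library, most of it from Lyz2. The sums were 10.4 to 19.6 CPM for 7 T cell markers, 7.93 to 18.9 for 5 B cell markers, 1.06 to 3.76 for 3 NK cell markers and at most 0.568 for 4 melanoma markers, of which Tyr was at 0 in 7 of the 8 groups. Markers of T, B and NK cells were thus at low levels, whereas 4 plasma cell markers summed to 658 to 1266 CPM in the knockout libraries and 17.8 to 28.8 CPM in the WT libraries. Most of that sum came from Igkc and Jchain, while Mzb1 reached at most 1.38 CPM and Derl3 3.43 CPM in any library. The RNA is a mixture, so fewer cells of a type and less RNA per cell cannot be told apart.

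The genes covered a wide range of levels. Per kilobase of the longest transcript, Rab7 led in WT co-cultures without antigen with 303 ± 1.18 CPM per kilobase, followed by Gabarap at 282 ± 9.62 and Sqstm1 at 144 ± 0.641. Among the ATG8 proteins of the same libraries the order was Gabarap, Gabarapl1 (122 ± 2.42), Map1lc3b (44.3 ± 1.03), Gabarapl2 (24.2 ± 1.13) and Map1lc3a (10.2 ± 0.52). No libraries of neighbours in this order overlapped. Of the transcription factors Mitf (36.6 ± 1.03 CPM per kilobase) stood above Tfe3 (19.3 ± 0.322) and Tfeb (13.9 ± 0.613). With antigen the order by this measure became Tfe3, Mitf and Tfeb in both genotypes. In WT the order of Tfe3 and Mitf depends on the length used. The longest transcripts have 6328 bases for Tfe3 and 4881 for Mitf, and all exon bases together 9261 and 6196. The levels were then 19.5 ± 0.155, 15.5 ± 0.417 and 4.86 ± 0.33 CPM per kilobase in the knockout, and 19.3 ± 0.215, 17.3 ± 0.719 and 5.25 ± 0.0859 in WT.

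**Figure D1:**
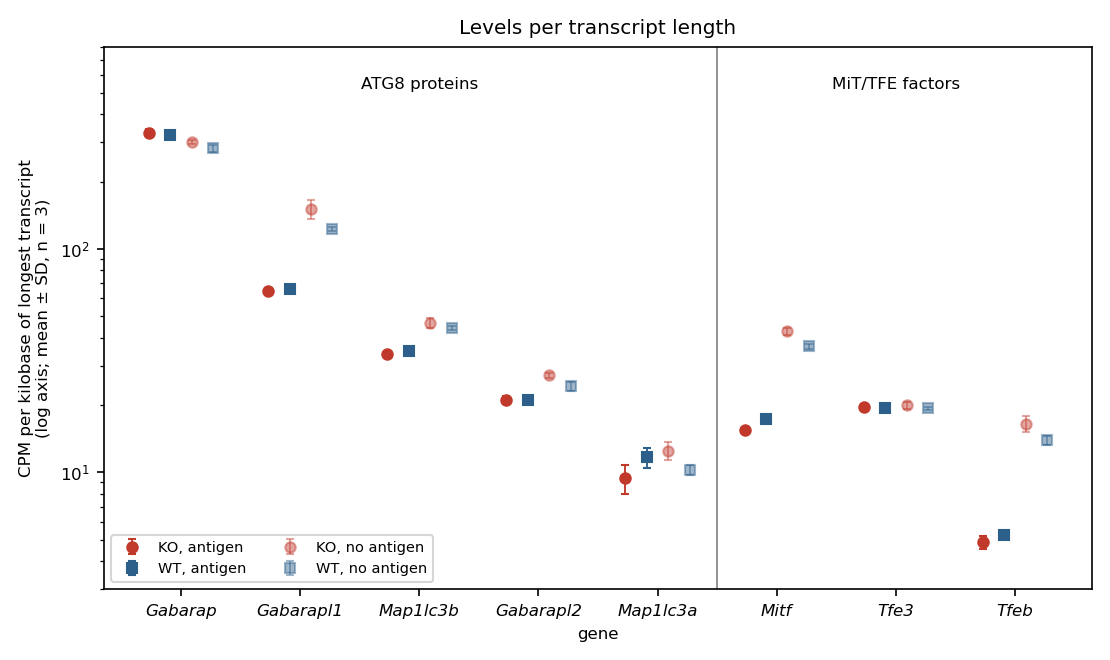
Levels of the ATG8 proteins and of the MiT/TFE transcription factors in 4 groups, as CPM per kilobase of the longest transcript on a log axis (points: mean of 3 libraries, whiskers: SD; red circles knockout, blue squares WT, pale symbols no antigen). Gabarap is the highest ATG8 gene in each group shown, and Tfeb and Mitf are lower with antigen while Tfe3 is at 19.3 CPM per kilobase in both WT groups.

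Tumour cell antigen changed most of these genes in both genotypes, and different steps of the pathway moved in different directions. In knockout co-cultures 15 of 53 rose (background among all genes tested 33.8%) and 27 fell (background 34.6%). In WT co-cultures 20 rose (background 33.5%) and 25 fell (background 34.5%). The median log2 fold change of the 53 was -0.11 in the knockout and -0.05 in WT, against 0.01 and 0.00 for all genes. In both genotypes 23 genes fell (43.4%, against 29.9% of all genes tested) and 14 rose (26.4%, against 29%), and 1 was called in opposite directions (1.89%, against 0.34%). A further 4 were called in the knockout and not in WT, 7 in WT and not in the knockout, and 4 in neither. The matching shares of all genes were not computed for these last counts. Of all genes tested, 68.3% were called with antigen in the knockout and 68% in WT, which is the background of the role counts below. The summed level of 5 neutrophil markers was 374 to 431 CPM with antigen and 1209 to 1300.0 CPM without in the knockout, and 346 to 419 and 1153 to 1291 CPM in WT, with all 5 lower in each genotype. The sum of 4 markers of dividing cells was 263 to 294 CPM with antigen and 428 to 444 CPM without in the knockout, and 211 to 233 and 538 to 543 CPM in WT, with all 4 lower. Their part in the results was not tested.

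**Figure D2:**
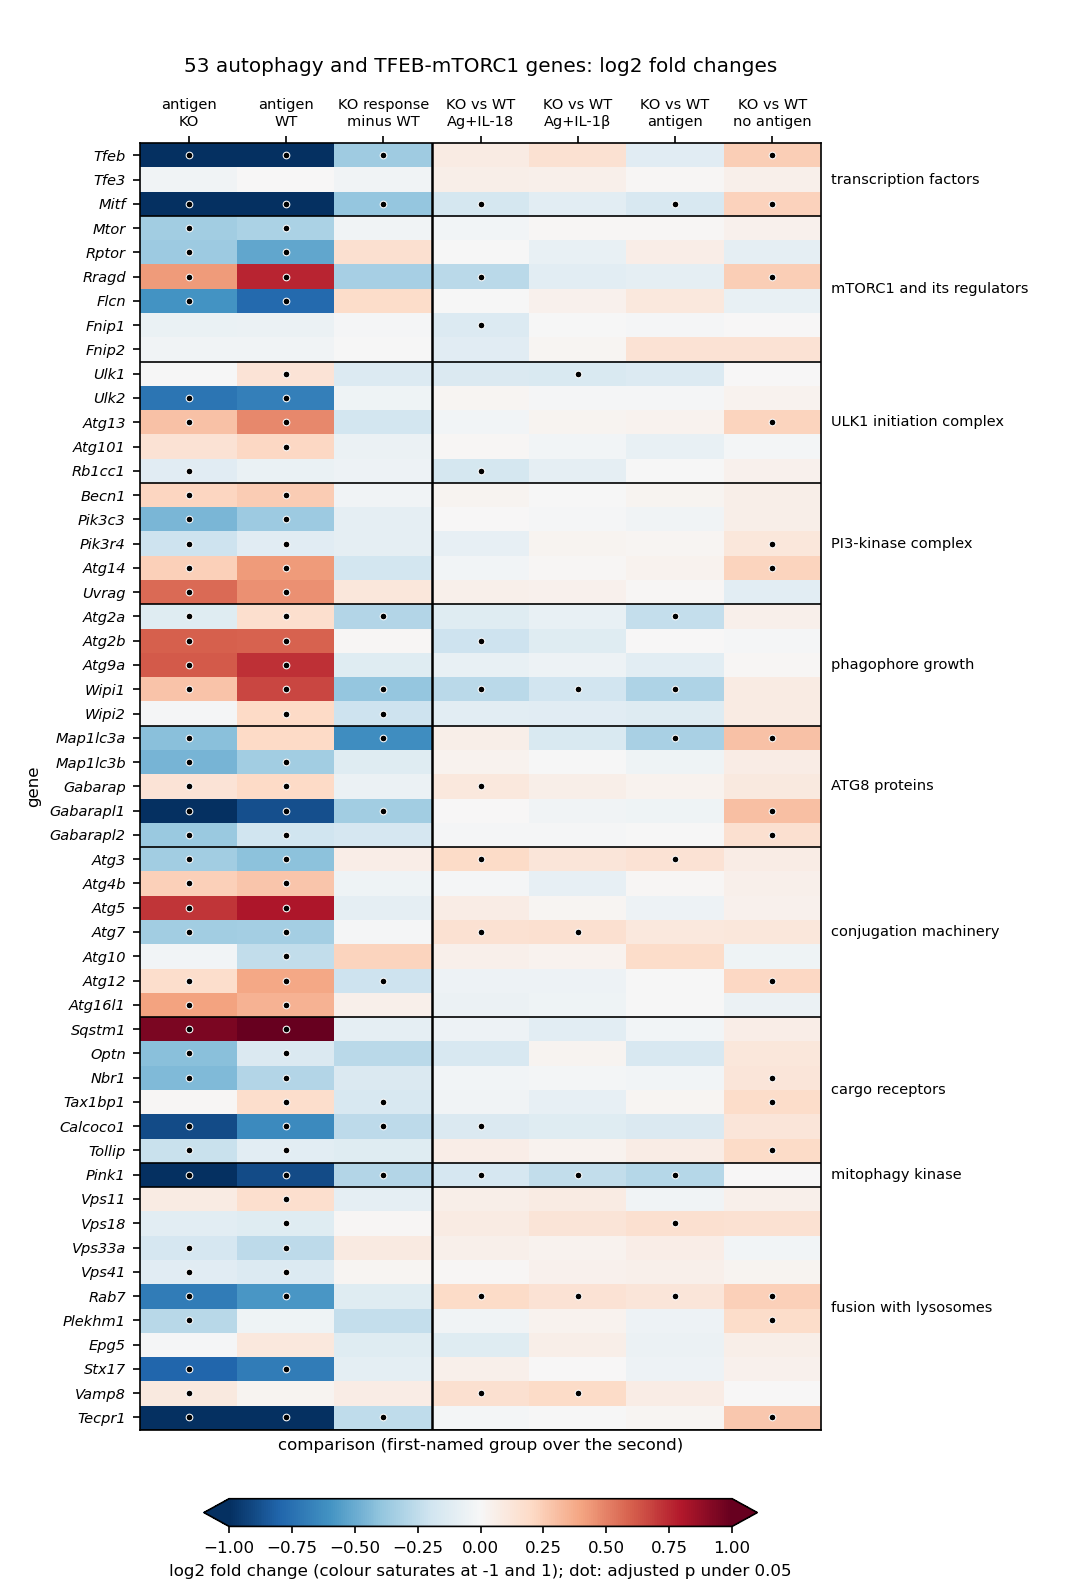
Log2 fold changes of the 53 genes (rows, grouped by role) in 7 comparisons (columns), red for higher and blue for lower in the first-named group, the colour saturating at -1 and 1; a dot marks an adjusted p under 0.05. The antigen columns of both genotypes look alike, and the knockout-over-WT column without antigen has 16 dots, all on red cells.

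Of the transcription factors, Tfeb and Mitf fell steeply in both genotypes and Tfe3 was not called. Tfeb was at 10.5, 11.7 and 12.0 CPM in knockout co-cultures with antigen, against 41.1, 34.9 and 39.5 CPM without it. In WT, Tfeb was at 12.3, 12.5 and 12.1 CPM with antigen, against 31.7, 34.2 and 31.7 CPM without. Every antigen library lay far below every library without antigen. The level was 3.39-fold lower in the knockout (log2 fold change -1.76 ± 0.08, adjusted p 5.84e-18) and 2.64-fold lower in WT (-1.40 ± 0.08, adjusted p 1.62e-15). Mitf, the related factor of melanocytes, osteoclasts and macrophages, was at 74.1, 78.0 and 75.0 CPM with antigen in the knockout, against 213, 199.9 and 214 CPM without. In WT, Mitf was at 82.1, 88.6 and 83.0 CPM with antigen, against 183, 173 and 179 CPM without. Here too the groups stood far apart, with log2 fold changes of -1.46 ± 0.05 in the knockout (adjusted p 3.16e-21) and -1.08 ± 0.05 in WT (adjusted p 3.78e-18). Tfe3 was at 124, 123 and 123 CPM with antigen and 127, 122 and 131 CPM without in the knockout, and at 123, 123 and 121 CPM and 125, 121 and 121 CPM in WT. Its groups overlapped in both genotypes (adjusted p 0.333 in the knockout and 0.997 in WT).

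Among mTORC1 and its regulators 1 gene of 6 rose (16.7%) and 3 fell (50%) in each genotype. Of all genes 33.8% rose and 34.6% fell in the knockout, and 33.5% and 34.5% in WT. Rragd, a Rag GTPase that brings mTORC1 to lysosomes, was at 42.8, 43.3 and 41.7 CPM in the knockout with antigen, against 34.2, 26.3 and 34.3 CPM without (0.43 ± 0.08). In WT, Rragd was at 44.0, 47.8 and 43.6 CPM with antigen, against 24.1, 27.8 and 28.2 CPM without (0.76 ± 0.08). It rose in each genotype with no overlap of libraries. Flcn, whose protein folliculin acts on the Rag GTPases so that mTORC1 can phosphorylate TFEB, was at 42.5, 44.1 and 44.5 CPM in the knockout with antigen, against 68.5, 61.6 and 67.8 CPM without (-0.59 ± 0.05). In WT, Flcn was at 39.5, 39.3 and 42.8 CPM, against 67.1, 69.2 and 71.8 CPM (-0.78 ± 0.05), and so fell in both. Mtor, the kinase itself, fell by log2 fold changes of -0.35 in the knockout and -0.32 in WT, and Rptor, its substrate-binding partner, by -0.36 and -0.52. The folliculin partners Fnip1 and Fnip2 had values between -0.07 and -0.04 in both genotypes and were not called.

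Initiation genes split. Ulk2, a kinase of the ULK1 complex, was at 57.5, 58.1 and 57.7 CPM with antigen in the knockout, against 96.3, 93.3 and 97.5 CPM without (-0.73 ± 0.04). In WT, Ulk2 was at 60.1, 57.1 and 57.4 CPM, against 93.7, 91.9 and 95.1 CPM (-0.69 ± 0.04), so that it fell to a similar level in both. Ulk1, its close relative, was at 36.3, 31.4 and 35.0 CPM with antigen and 34.3, 33.8 and 35.1 CPM without in the knockout (adjusted p 0.946). In WT, Ulk1 was at 37.3, 38.8 and 36.8 CPM with antigen and 34.5, 33.6 and 34.8 CPM without (0.13 ± 0.05, adjusted p 0.0262). The WT rise of Ulk1 was lost without WT no-antigen library 2 or WT antigen library 2 (adjusted p 0.0643 and 0.109). Atg13, the adaptor of the complex, rose by 0.29 in the knockout and 0.48 in WT.

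All 5 genes of the PI3-kinase complex were called in each genotype, 3 higher and 2 lower. Of all genes 68.3% were called in the knockout and 68% in WT. The regulatory subunits Uvrag (0.57 in the knockout, 0.45 in WT), Atg14 (0.24, 0.43) and Becn1 (0.21, 0.25) rose. The catalytic subunit Pik3c3 (-0.45, -0.36) and its partner Pik3r4 (-0.21, -0.11) fell. The longest Uvrag transcript holds a stretch near-identical to parts of other genes, so its counts are uncertain. The WT call of Pik3r4 was lost without WT no-antigen library 2 or 3 or WT antigen library 3 (adjusted p 0.0519 to 0.14).

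In phagophore growth all 5 genes rose in WT (background 33.5%), and 3 rose (background 33.8%) and 1 fell (background 34.6%) in the knockout. Atg9a, the lipid scramblase that seeds the phagophore, was at 28.4, 27.1 and 25.6 CPM with antigen in the knockout, against 17.7, 19.2 and 16.3 CPM without (0.61 ± 0.06). In WT, Atg9a was at 29.4, 28.9 and 29.1 CPM, against 19.1, 16.4 and 17.1 CPM (0.73 ± 0.06). Atg2b, a lipid transfer protein, rose by 0.60 in the knockout and 0.59 in WT. Wipi1, which binds the lipid made by the PI3-kinase complex, was at 24.8, 28.0 and 24.6 CPM in the knockout with antigen, against 20.5, 20.7 and 22.1 CPM without (0.28 ± 0.06). In WT, Wipi1 was at 31.5, 32.6 and 31.4 CPM, against 19.1, 19.5 and 21.4 CPM (0.67 ± 0.06). The genotypes overlapped in Wipi1 without antigen, and with antigen all WT libraries lay above all knockout libraries. Atg2b shares exon bases with Gskip and Atg9a with Ankzf1 on the opposite strand, so their counts are uncertain to that extent.

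The ATG8 proteins did not move together. Gabarapl1, a GABARAP-type protein of autophagosome maturation, was at 113, 122 and 117 CPM with antigen in the knockout, against 287, 243 and 291 CPM without (-1.22 ± 0.05, adjusted p 1.99e-19). In WT, Gabarapl1 was at 119, 122 and 121 CPM, against 224, 217 and 226 CPM (-0.88 ± 0.05, adjusted p 4.62e-16). It fell in both, the genotypes overlapped with antigen, and without antigen every knockout library lay above every WT library. Map1lc3b, the LC3 protein most used as an autophagosome marker, was at 137, 139.7 and 142 CPM with antigen in the knockout, against 199.8, 183 and 196 CPM without (-0.47 ± 0.04). In WT, Map1lc3b was at 141, 146 and 143 CPM, against 181, 188 and 181 CPM (-0.35 ± 0.04), with all antigen libraries the lower ones. Gabarapl2 fell by smaller amounts (-0.37 in the knockout, -0.20 in WT), and Gabarap rose (0.13 and 0.20). Map1lc3b, Gabarapl2 and Rab7 have processed pseudogenes that are near-identical over part of their length, each with at most 0.318% of the member's counts.

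Conjugation genes rose or fell by enzyme. Atg5, which with ATG12 and ATG16L1 forms the complex that places ATG8 proteins on the membrane, was at 91.0, 86.8 and 90.6 CPM with antigen in the knockout, against 56.9, 52.98 and 53.8 CPM without (0.71 ± 0.04). In WT, Atg5 was at 91.2, 94.8 and 91.8 CPM, against 52.9, 51.6 and 54.5 CPM (0.81 ± 0.04). Its partners Atg12 (0.17 in the knockout, 0.38 in WT) and Atg16l1 (0.40, 0.35) and the ATG8-processing protease gene Atg4b (0.24, 0.28) rose as well. The activating enzyme gene Atg7 (-0.35, -0.34) and the conjugating enzyme gene Atg3 (-0.35, -0.41) fell. Of the promoters printed above, those of Atg5 and Atg14 thus belong to genes that rose with antigen. Those of Atg3 and Vps33a (-0.17 in the knockout, -0.26 in WT) belong to genes that fell. Of the motif carriers not printed, Atg7 fell in both genotypes and Fnip1 was not called in either.

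Among the cargo receptors, Sqstm1, the gene of p62 and a known target of TFEB and of the oxidative stress factor NRF2, had the largest rise of the 53 genes in each genotype. It was at 779, 757 and 785 CPM in the knockout with antigen, against 424, 367 and 419 CPM without (1.92-fold higher, 0.94 ± 0.04, adjusted p 2e-18). In WT, Sqstm1 was at 783, 799.9 and 785 CPM, against 384, 387 and 387 CPM (2.04-fold higher, 1.03 ± 0.04, adjusted p 2.74e-19). The antigen libraries stood far above the others, and knockout and WT overlapped in both conditions. Calcoco1, a receptor for endoplasmic reticulum, was at 24.3, 27.1 and 26.7 CPM in the knockout with antigen, against 48.4, 46.4 and 50.3 CPM without (-0.90 ± 0.05). In WT, Calcoco1 was at 27.2, 29.7 and 29.0 CPM, against 44.5, 44.5 and 45.0 CPM (-0.64 ± 0.05). It fell in both genotypes, as did Nbr1 (-0.44 in the knockout, -0.30 in WT), Optn (-0.42, -0.15) and Tollip (-0.22, -0.10), which bind ubiquitin-marked cargo. The WT calls of Optn and Tollip were lost without WT no-antigen library 2 or WT antigen library 3 (adjusted p 0.0907 to 0.223), that of Optn also without WT antigen library 2 (0.0882) and that of Tollip without WT antigen library 1 (0.0512).

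Pink1, the kinase that marks damaged mitochondria for autophagy, was at 32.8, 39.4 and 35.4 CPM in the knockout with antigen, against 82.6, 74.2 and 87.0 CPM without (-1.18 ± 0.06). In WT, Pink1 was at 41.1, 45.2 and 44.6 CPM, against 83.7, 80.2 and 79.6 CPM (-0.89 ± 0.06). It fell in both, and with antigen every knockout library lay below every WT library.

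Fusion genes were mostly lower with antigen, 6 of 10 in each genotype (60%, background 34.6% in the knockout and 34.5% in WT). Tecpr1, which links autophagosomes to lysosomes, was at 62.2, 64.2 and 62.4 CPM in the knockout with antigen, against 180.5, 166 and 191 CPM without (2.85-fold lower, -1.51 ± 0.05). In WT, Tecpr1 was at 58.9, 64.0 and 63.4 CPM, against 143, 156 and 148 CPM (2.39-fold lower, -1.26 ± 0.05). Antigen and no-antigen libraries of Tecpr1 were far apart in both. Rab7, the GTPase of late endosomes and lysosomes, was at 453, 489 and 486 CPM in the knockout with antigen, against 798, 729 and 792 CPM without (-0.70 ± 0.04). In WT, Rab7 was at 441, 436 and 437 CPM, against 656, 655 and 651 CPM (-0.58 ± 0.04). Stx17, the SNARE of closed autophagosomes, was at 35.3, 33.0 and 31.8 CPM in the knockout with antigen, against 55.1, 57.2 and 61.6 CPM without (-0.80 ± 0.05). In both Rab7 and Stx17 the antigen libraries were the lower ones in each genotype, the WT value of Stx17 being -0.70 ± 0.05. The HOPS tethering subunits moved little, from -0.26 for Vps33a to 0.17 for Vps11 in WT.

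Small antigen calls were lost in a few more genes when 1 library was left out. In the knockout these were Rb1cc1 without no-antigen library 2 or 3 or antigen library 2 or 3 (adjusted p 0.0889 to 0.328), Vps41 without no-antigen 3 or antigen 1 (0.0501 and 0.114) and Vamp8 without no-antigen 3 or antigen 3 (0.106 and 0.188). In WT they were Atg10 without no-antigen 1 or 2 or antigen 1 or 3 (0.0501 to 0.243), Atg101 without no-antigen 1 or 2 (0.0581 and 0.06) and Vps18 without any of the 6 but no-antigen 3 (0.0536 to 0.29).

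**Figure D3:**
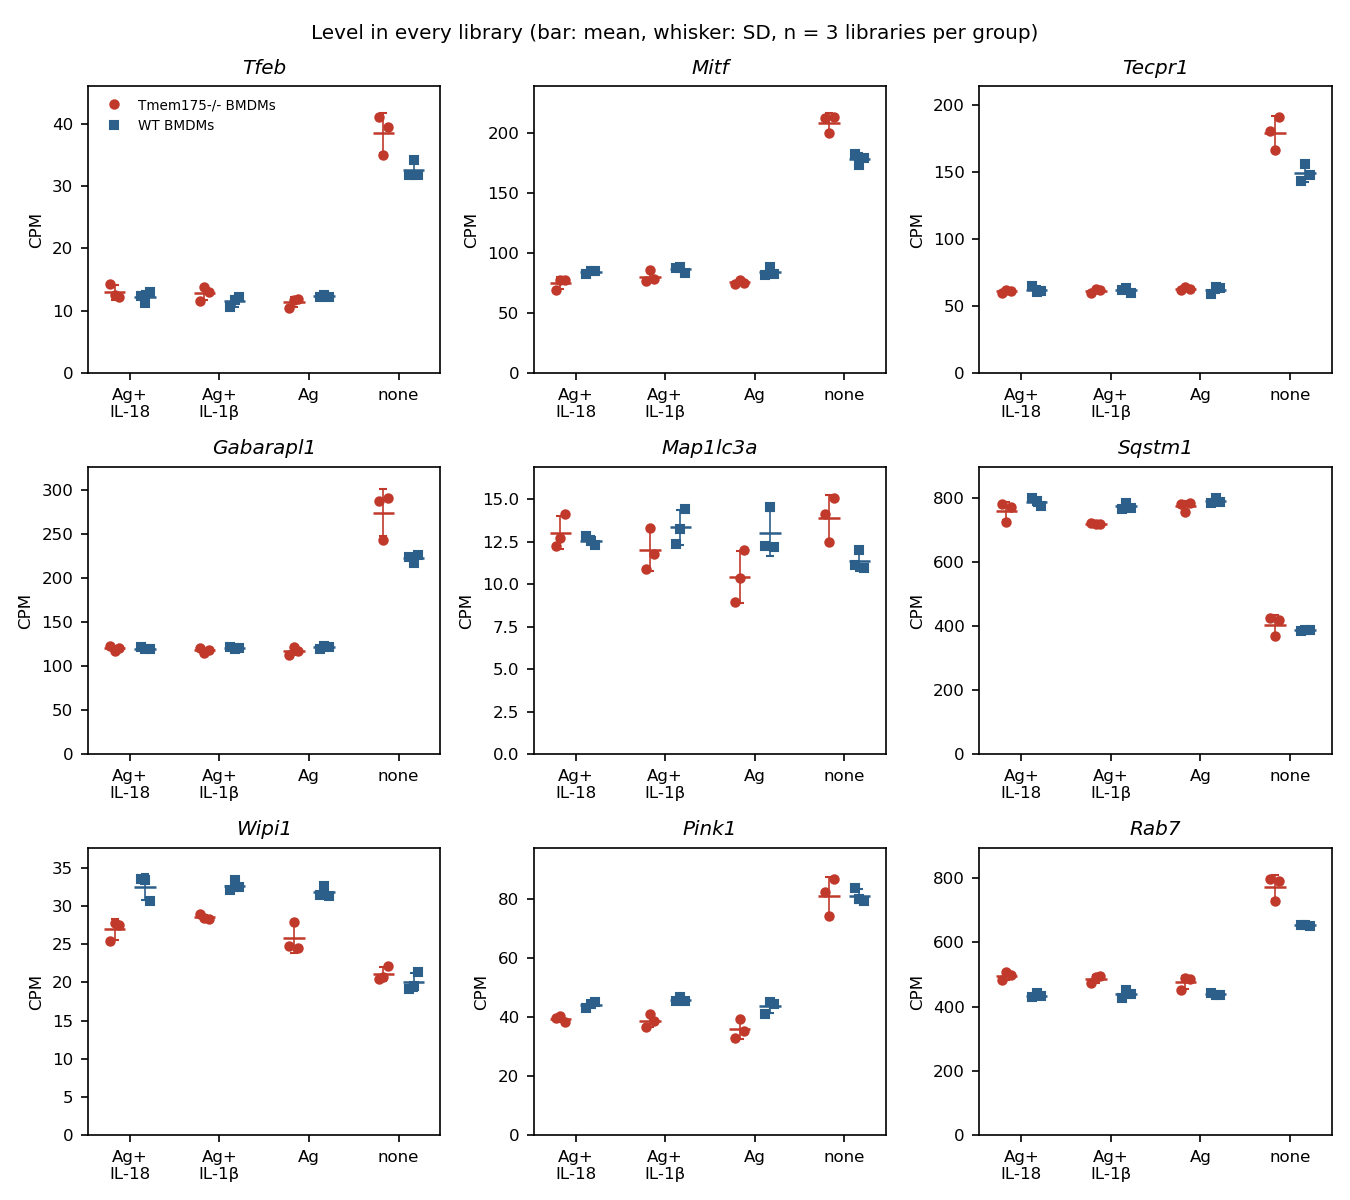
CPM of 9 of the genes in every library, in 4 conditions (Ag, tumour cell antigen), knockout as red circles left of WT as blue squares; bars are means, whiskers SD, n = 3 libraries, and axes start at 0. Libraries without antigen stand apart from the 3 antigen conditions in Tfeb, Mitf, Tecpr1, Gabarapl1, Sqstm1, Pink1 and Rab7, and the WT antigen libraries of Wipi1 (30.6 to 33.6 CPM) lie above those of the knockout (24.6 to 28.9 CPM).

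The response to antigen differed between genotypes in 12 of the 53 genes, and in each of the 12 the knockout response was the lower one. By this test of the difference 12 members were lower (22.6% of members, background 4.6%) and none was higher (background 3.79%; edgeR, with 2 higher at an unadjusted p under 0.05 and 0 higher by DESeq2). The difference of responses was negative for 42 of 53 members (79.2%), against 51.2% of all genes tested. Its median was -0.09 for the members and -0.01 for all genes. Tfeb, Mitf, Gabarapl1, Calcoco1, Pink1 and Tecpr1 fell in both genotypes, and further in the knockout. Wipi1 and Atg12 rose in both, and by less in the knockout. Tax1bp1 (0.01 in the knockout, 0.17 in WT) and Wipi2 (-0.01, 0.20) rose in WT and were not called in the knockout. By the same test of the difference 4 of 4 markers of dividing cells, 2 of 5 neutrophil markers and 2 of 5 B cell markers were higher and 1 of 7 macrophage markers lower. Their part in the result was not tested.

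The difference of responses was -0.39 ± 0.06 for Mitf (adjusted p 0.000204), -0.34 ± 0.06 for Gabarapl1 (adjusted p 0.000773) and -0.39 ± 0.08 for Wipi1 (adjusted p 0.00313). Map1lc3a, an LC3 gene at a low level, was at 8.97, 10.3 and 12.0 CPM with antigen in the knockout, against 14.1, 12.5 and 15.1 CPM without. In WT, Map1lc3a was at 12.3, 14.5 and 12.2 CPM, against 11.2, 12.0 and 10.9 CPM. The knockout libraries with antigen were all below those without, and the WT libraries with antigen all above. It fell in the knockout (-0.42 ± 0.10) and was not called in WT (0.20 ± 0.10, adjusted p 0.0785), with a difference of -0.62 ± 0.14 (adjusted p 0.00529). Atg2a, a lipid transfer protein, was at 36.7, 37.4 and 37.1 CPM with antigen in the knockout, against 40.3, 39.5 and 41.2 CPM without. In WT, Atg2a was at 42.5, 44.2 and 44.4 CPM, against 38.9, 37.6 and 40.3 CPM. It fell in the knockout (-0.12 ± 0.05) and rose in WT (0.17 ± 0.05), with a difference of -0.29 ± 0.07 (adjusted p 0.00576). The knockout fall of Atg2a was lost without knockout no-antigen library 1 or 3 or knockout antigen library 1 or 2 (adjusted p 0.0579 to 0.129).

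These 5 differences (Mitf, Gabarapl1, Wipi1, Map1lc3a and Atg2a) kept their call in every alternative and without each of the 12 libraries, and the other 7 did not. Tfeb (-0.36, adjusted p 0.0405) lost it without 9 of the 12 libraries, all but knockout no-antigen 2, knockout antigen 3 and WT no-antigen 2 (adjusted p 0.0614 to 0.166). Wipi2 (-0.21) lost it without 9, all but knockout no-antigen 2, knockout antigen 2 and WT no-antigen 3 (0.0538 to 0.151). Atg12 (-0.21) lost it without 8, all but those 3 and WT antigen 1 (0.0532 to 0.149). Calcoco1 (-0.26) and Pink1 (-0.29) lost it without knockout no-antigen 3, knockout antigen 1, WT antigen 2 or WT antigen 3 (0.0664 to 0.132), Pink1 also without WT no-antigen 3 (0.0512). Tecpr1 (-0.25) lost it without knockout antigen 1 or WT antigen 3 (0.0511 and 0.055) and Tax1bp1 (-0.16) without knockout antigen 2 (0.0649). The count of 12 became 7 without knockout no-antigen 3, knockout antigen 1 or WT antigen 2, and 6 without WT antigen 3.

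**Figure D4:**
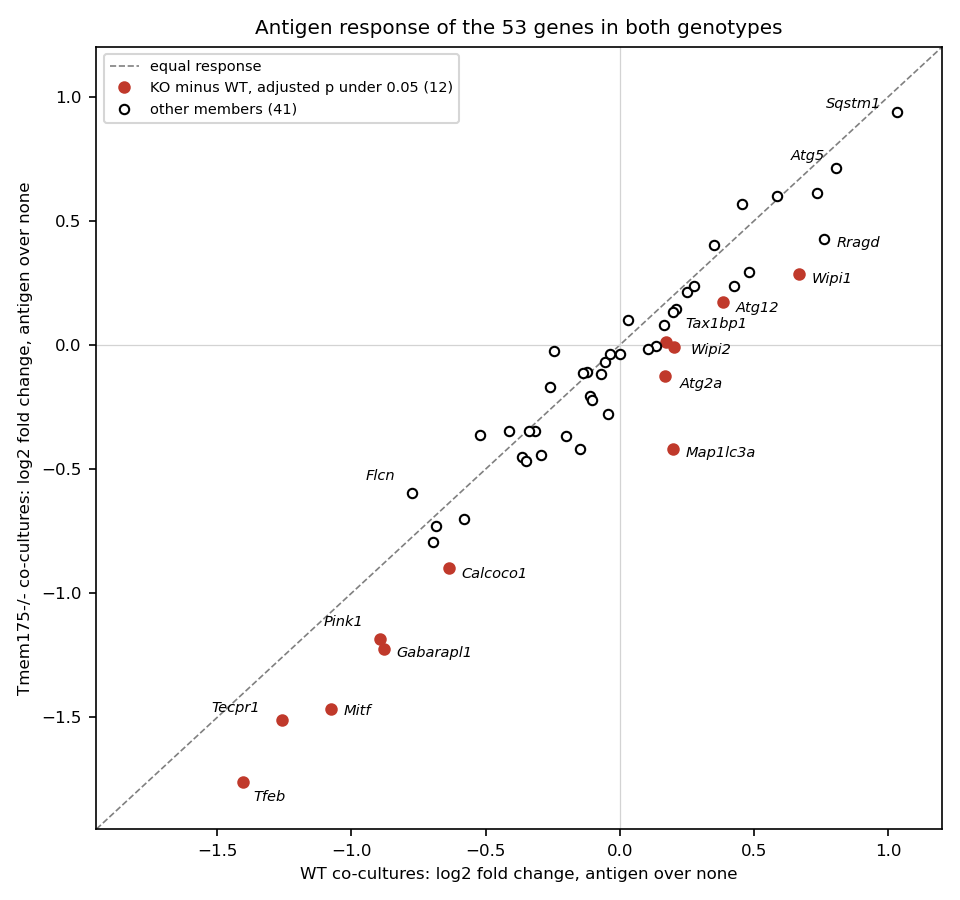
Log2 fold change with antigen in knockout co-cultures (vertical axis) against that in WT co-cultures (horizontal axis) for the 53 genes; the dashed line marks equal responses and filled red points the 12 genes whose responses differ at an adjusted p under 0.05. All 12 lie below the line, from Tfeb at the lower left to Wipi1 on the right.

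Without antigen, 16 of the 53 genes were higher in the knockout (30.2%, background 9.62%) and none was lower (background 7.25%; edgeR, with 1 lower at an unadjusted p under 0.05 and 0 lower by DESeq2). The median log2 fold change was 0.06, against 0.01 for all genes, and 45 of the 53 values were positive. The called differences were small, from 0.12 to 0.30 on the log2 scale. They came from 8 of the 10 roles: the transcription factors Tfeb and Mitf, the mTORC1 regulator Rragd, the initiation gene Atg13, Pik3r4 and Atg14 of the PI3-kinase complex, the ATG8 genes Map1lc3a, Gabarapl1 and Gabarapl2, the conjugation gene Atg12, the receptors Nbr1, Tax1bp1 and Tollip, and Rab7, Plekhm1 and Tecpr1 of fusion. No gene of phagophore growth was called, nor was Pink1.

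Gabarapl1 had the largest of these differences (0.30 ± 0.04, 1.23-fold higher, adjusted p 1.2e-05), with 243 to 291 CPM in the knockout and 217 to 226 CPM in WT. Tecpr1 (0.27 ± 0.04, adjusted p 5.15e-05), Rab7 (0.24 ± 0.04, adjusted p 1.18e-05) and Mitf (0.23 ± 0.04, adjusted p 0.000387) were likewise higher in every knockout library, as their values above show. Tax1bp1, a receptor that also restrains NF-kB signalling, was at 352, 339 and 355 CPM in the knockout, against 309, 307 and 306 CPM in WT (0.18 ± 0.03, adjusted p 2.78e-05). Atg13 was at 64.1, 62.0 and 66.6 CPM in the knockout, against 56.2, 55.5 and 53.8 CPM in WT (0.22 ± 0.04). Atg12 was at 98.4, 90.6 and 97.7 CPM in the knockout, against 83.3, 81.8 and 83.4 CPM in WT (0.21 ± 0.04). Tollip, an adaptor that binds ubiquitin and restrains Toll-like receptor signalling, was at 119, 113 and 113 CPM in the knockout, against 98.4, 106 and 97.7 CPM in WT (0.19 ± 0.04). In all of these the highest WT library lay below the lowest knockout library. These 8 genes kept their call under every alternative and without each of the 6 libraries.

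The other 8 genes were less firm. Tfeb (0.24 ± 0.07, adjusted p 0.0121), whose groups do not overlap, lost its call without knockout library 1 or 3 or WT library 1 or 3 (adjusted p 0.0549 to 0.0851). Rragd (0.25), where knockout library 2 lies among the WT libraries, lost it without knockout library 1 or 3 or WT library 1 (0.169 to 0.202), as did Gabarapl2 (0.16; 0.0568 to 0.152). Atg14 (0.22) and Map1lc3a (0.29) lost it without the same 4 libraries as Tfeb (0.0647 to 0.211). Plekhm1 (0.19), an adaptor of RAB7, lost it without knockout 1 or 3 or WT 1 or 2 (0.0611 to 0.115). Nbr1 (0.12) lost it without knockout 3 or WT 1 or 3 (0.0906 to 0.153), and Pik3r4 (0.12) without any one of the 6 (0.057 to 0.208). The count of 16 became 9 without knockout library 1, 8 without knockout library 3 and 8 without WT library 1.

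Marker sums moved with the genotype in the same libraries. Without antigen they were 11605 to 11971 CPM in the knockout and 16876 to 17358 CPM in WT for macrophages (2 of 7 genes higher and 2 lower), and 428 to 444 and 538 to 543 CPM for dividing cells (4 of 4 lower). They were 773 to 1058 CPM in the knockout and 18.7 to 27.0 CPM in WT for 4 plasma cell markers (4 of 4 higher), and 11.1 to 26.4 and 26.0 to 93.5 CPM for 5 fibroblast markers (3 of 5 lower). With antigen alone they were 14256 to 16511 CPM in the knockout and 23039 to 24119 CPM in WT for macrophages. Of the 7 macrophage genes 1 was then higher and 1 lower. The sums were 882 to 1057 and 17.8 to 28.8 CPM for plasma cells, and 35.0 to 43.4 and 108 to 168 CPM for fibroblasts (4 of 5 lower). Dividing-cell markers then lay the other way round, at 263 to 294 CPM in the knockout and 211 to 233 CPM in WT (3 of 4 higher, as also with IL-1β and with IL-18). Neutrophil markers were at 374 to 431 CPM in the knockout and 346 to 419 CPM in WT with antigen alone (2 of 5 higher). With antigen plus IL-1β they were at 447 to 578 CPM in the knockout and 328 to 378 CPM in WT, and with antigen plus IL-18 at 469 to 582 and 314 to 344 CPM (4 of 5 higher in each). Their part in the genotype differences was not tested.

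With antigen most of these differences were not called. Of the 16 genes higher in the knockout without antigen, 15 were not called higher in any of the 3 antigen conditions. The matching share of all genes was not computed, so this count is not read as a trait of the members. A missing call is also no measure of an absent difference, since the differences were small. With antigen alone 3 of 53 genes were higher in the knockout (5.66%, background 7.7%) and 5 lower (9.43%, background 7.62%). With antigen plus IL-1β 3 were higher (5.66%, background 7.22%) and 3 lower (5.66%, background 6.55%). With antigen plus IL-18 5 were higher (9.43%, background 9.89%) and 8 lower (15.1%, background 10.3%). These shares are near the background. For the lower genes with IL-18, DESeq2 called 5 rather than 8, and the calls of that comparison depended on single libraries, as given below. The 4 genotype comparisons share no library.

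Wipi1 and Pink1 were lower in the knockout in all 3 antigen conditions and were not called without antigen. How many of all genes show this pattern was not computed, so it is not read as a trait of the members. Wipi1 was at 25.4, 27.8 and 27.6 CPM in the knockout with antigen plus IL-18, against 33.6, 33.4 and 30.6 CPM in WT (-0.27 ± 0.06, adjusted p 0.000789). With antigen plus IL-1β it was at 28.9, 28.5 and 28.3 CPM in the knockout, against 32.1, 33.4 and 32.5 CPM in WT (-0.19 ± 0.06, adjusted p 0.0166). With antigen alone the difference was -0.31 ± 0.06 (adjusted p 0.000218), and in each condition the highest knockout library lay below the lowest WT library. Pink1 was at 39.6, 40.3 and 38.5 CPM in the knockout with IL-18, against 43.1, 44.5 and 45.2 CPM in WT (-0.17 ± 0.06, adjusted p 0.0463). With IL-1β it was at 36.6, 41.1 and 38.7 CPM in the knockout, against 45.4, 47.0 and 45.3 CPM in WT (-0.24 ± 0.06, adjusted p 0.00538). With antigen alone Pink1 differed by -0.29 ± 0.06 (adjusted p 0.00113), and its groups did not overlap in any of the 3 conditions. Pink1 lost its call with IL-18 without any one of the 6 libraries (adjusted p 0.0525 to 0.201) and with IL-1β without knockout library 1 (0.0562). Wipi1 lost its call with IL-1β without knockout library 2 or 3 or WT library 2 (0.0525 to 0.0716).

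Rab7 was the 1 gene higher in the knockout in all 4 conditions. That is 1.89% of the members, against 4.24% of all genes that were called in all 4 in the same direction. It was at 483, 508 and 497 CPM in the knockout with IL-18, against 429, 441 and 431 CPM in WT (0.19 ± 0.04). With IL-1β it was at 472, 492 and 494 CPM in the knockout, against 427, 452 and 440.1 CPM in WT (0.15 ± 0.04). With antigen alone the difference was 0.12 ± 0.04 (adjusted p 0.0211), and that call was lost without knockout library 2 or 3 or WT library 2 or 3 (0.0562 to 0.0989). In every condition all knockout libraries of Rab7 lay above all WT libraries. Vamp8, the lysosomal SNARE that pairs with STX17, was at 168, 168 and 162 CPM in the knockout with IL-18, against 147, 157 and 141 CPM in WT (0.16 ± 0.04). With IL-1β it was at 157, 173 and 168 CPM in the knockout, against 149.7, 139.5 and 148 CPM in WT (0.19 ± 0.04). The call with IL-18 was lost without WT library 3 (0.0729).

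A pair of conjugation enzyme genes had positive differences in all 4 conditions. Atg3 had 0.08 without antigen, 0.14 with antigen, 0.12 with IL-1β and 0.19 with IL-18, and was called with antigen and with IL-18. Atg7 had 0.11, 0.11, 0.16 and 0.15 in the same order, and was called with IL-1β and with IL-18. Atg3 with antigen lost its call without knockout library 3 or WT library 2 or 3 (0.0865 to 0.143). Atg7 lost its call without knockout 2 or 3 or WT 1 or 3 of the condition, with IL-1β (0.107 to 0.173) and with IL-18 (0.0596 to 0.17).

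**Figure D5:**
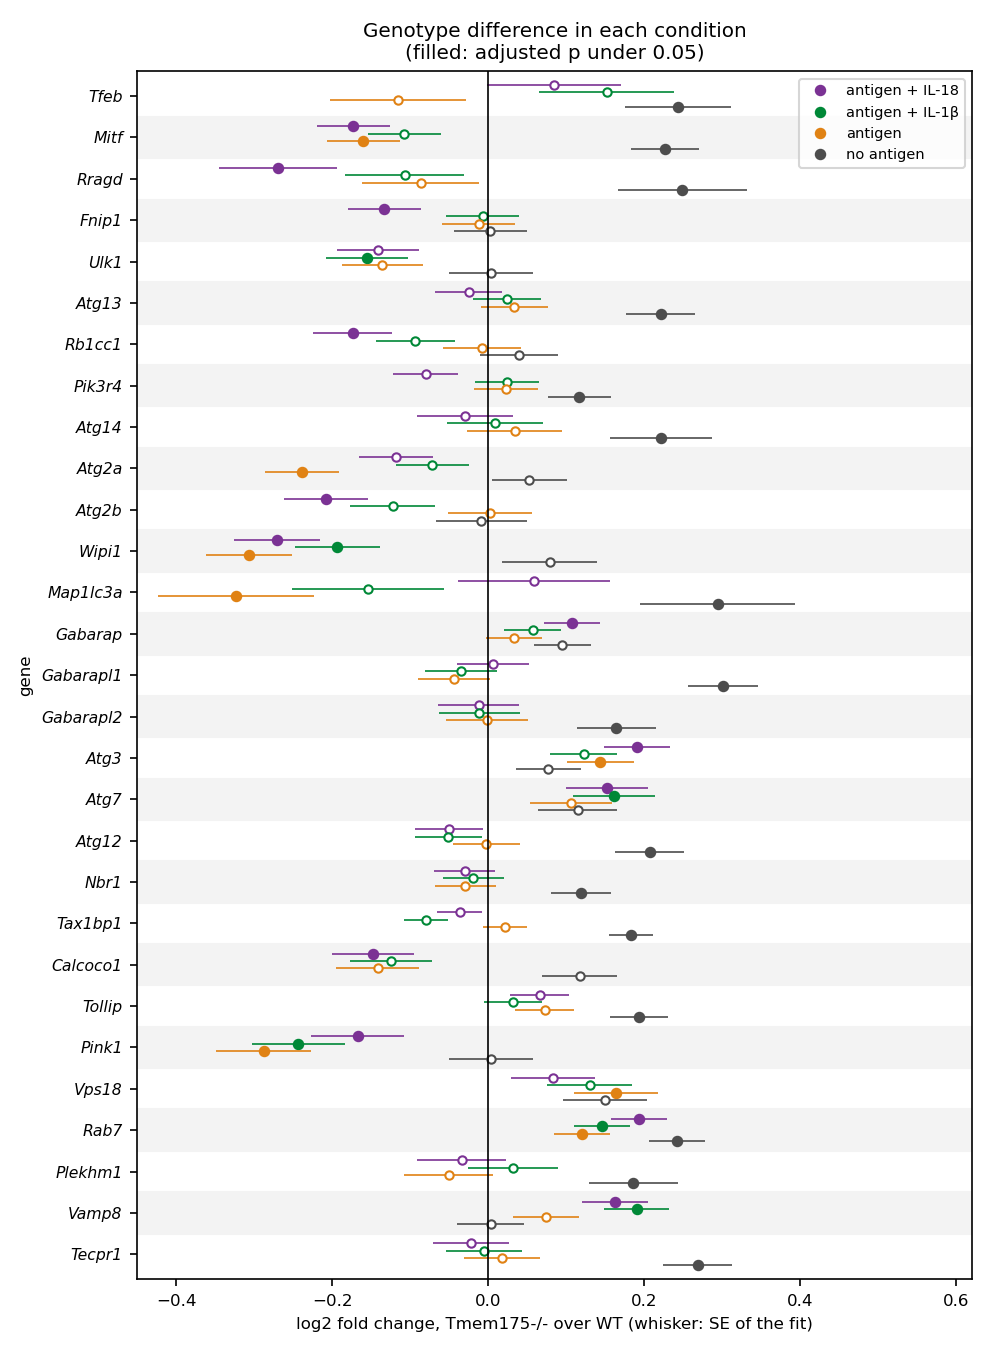
Log2 fold change of knockout over WT in each of the 4 conditions for the 29 genes called in at least 1 of them (points, filled where the adjusted p is under 0.05; whiskers: SE of the fit). All of these genes but Atg2b lie to the right of 0 without antigen, whereas Wipi1 and Pink1 are left of 0 in the 3 antigen conditions and Rab7 is filled on the right in all 4.

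Mitf, Rragd and Map1lc3a were called in opposite directions with and without antigen. The share of all genes with such opposite calls was not computed, so the switch is not read as particular to these genes. Mitf, higher in the knockout without antigen, was lower with antigen (-0.16 ± 0.05, adjusted p 0.0178). With IL-18 it was at 69.0, 77.6 and 77.8 CPM in the knockout, against 83.0, 84.9 and 85.1 CPM in WT (-0.17 ± 0.05). Rragd was lower with IL-18, at 37.7, 38.0 and 37.9 CPM in the knockout, against 46.0, 45.5 and 45.5 CPM in WT (-0.27 ± 0.08, adjusted p 0.0132). Map1lc3a was lower with antigen (-0.32 ± 0.10, adjusted p 0.0255). Tfeb was not called in any antigen condition (-0.12 with antigen, 0.15 with IL-1β, 0.08 with IL-18). Mitf lost its call with antigen without knockout library 1 or 3 or WT library 2 (0.0625 to 0.123), and with IL-18 without knockout library 1 (0.088). Rragd with IL-18 lost it without knockout library 3 or WT library 1 (0.0544 and 0.0518), and Map1lc3a with antigen without knockout library 1 or 2 or WT library 2 (0.0688 to 0.206). Without antigen, as given above, Rragd and Map1lc3a also lost their calls without any of several libraries, among them knockout library 1. The adjusted p then reached up to 0.202 and 0.211.

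The remaining calls with antigen were spread over the roles. Atg2a was lower in the knockout with antigen (-0.24 ± 0.05, adjusted p 0.000586), and Vps18, a HOPS subunit, higher (0.16 ± 0.05, adjusted p 0.037). With IL-1β Ulk1 was lower (-0.16 ± 0.05, adjusted p 0.0478). With IL-18 the scaffold gene Rb1cc1 (-0.17 ± 0.05), the lipid transfer gene Atg2b (-0.21 ± 0.05), Fnip1 (-0.13 ± 0.05) and Calcoco1 (-0.15 ± 0.05) were lower and Gabarap (0.11 ± 0.04) was higher. Atg2a kept its call under every alternative. Vps18 lost it without any library but knockout 2 (0.0521 to 0.151), Ulk1 without any but knockout 3 (0.0867 to 0.276), Rb1cc1 without knockout 1 or WT 1 or 3 (0.0574 to 0.101) and Atg2b without knockout 1 (0.0525). Fnip1 lost it without knockout 1 or 3 or WT 1 or 3 (0.0543 to 0.361), Calcoco1 without knockout 1 or 3 or WT 1 or 2 (0.141 to 0.204) and Gabarap without knockout 1 or 2 or WT 1 or 3 (0.0527 to 0.159). The count of 8 calls with antigen became 4 without knockout library 3, 3 without WT library 2 and 5 without WT library 3. The count of 13 with IL-18 became 7 without knockout library 1, 6 without WT library 1 and 7 without WT library 3.

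Averaged over the 4 conditions, 10 genes were higher in the knockout (18.9%, background 17.9%) and 7 lower (13.2%, background 16.7%), shares near the background. Of the 17, 12 kept their call under every alternative. Higher among them were Rab7 (0.18 ± 0.02), Atg3 (0.13), Atg7 (0.13), Vps18 (0.13), Vamp8 (0.11), Tollip (0.09) and Gabarap (0.07). Lower were Wipi1 (-0.17 ± 0.03), Pink1 (-0.17), Ulk1 (-0.11), Atg2a (-0.09) and Atg2b (-0.08). In phagophore growth all 5 values of this average were below 0 and 4 were called, all lower (80%, background 16.7%). In fusion with lysosomes 9 of 10 were above 0 and 4 were called, all higher (40%, background 17.9%). Of all 14099 genes, 6738 values were below 0 and 7361 above. The roles hold few genes each and were not tested as sets. Of the other 5, Wipi2 lost its call without knockout antigen library 1 or WT IL-18 library 1 (0.0516 and 0.054) and Atg13 without knockout no-antigen library 3 or WT IL-18 library 2 (0.0541 to 0.0654). Tfe3 lost its call without 13 of the 24 libraries (0.0513 to 0.121), Tecpr1 without 11 (0.0512 to 0.0891) and Calcoco1 without 6 (0.0574 to 0.0842).

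Almost none of these genes was called by edgeR when IL-1β or IL-18 was added to antigen. With IL-1β no member was called in the knockout (background 0.0426%) or in WT (background 0.0567%) by edgeR or by DESeq2. In edgeR's test 6 members in the knockout (1882 of all 14099 genes) and 5 in WT (1319 of all genes) had an unadjusted p under 0.05. The zero calls for IL-1β depended on settings. With no filter on low counts, and also with a replicate block, edgeR called 1 member in the knockout, Fnip2, and 1 in WT, Plekhm1. Both are named after their values were seen. The block also called far more of all genes, as given in the last section. Without knockout antigen library 2 Fnip2 was called as well, and the 6 of all genes called in the knockout became 284, against 18 without knockout IL-1β library 1 and 1 to 4 without each of the other 4. In WT the 8 of all genes became 2 to 3 without any one of WT antigen library 1 or 3 and WT IL-1β library 2 or 3. With IL-18, 13 members in the knockout had an unadjusted p under 0.05 in edgeR's test, 6 higher and 7 lower (1748 of all 14099 genes). In WT there were 2 such members (580 of all genes). None was called in WT by either tool (background 0%) and 1 in the knockout (background 0.213%). That gene was Fnip2, the folliculin partner, at 485, 501 and 476 CPM with antigen plus IL-18 and 621, 543 and 562 CPM with antigen alone (-0.24 ± 0.05, adjusted p 0.0373). The groups did not overlap, but the call was lost without knockout antigen library 1 or 3 or knockout IL-18 library 1 or 3 (adjusted p 0.082 to 0.325). Tfeb, Mitf and Sqstm1 had log2 fold changes between -0.10 and 0.19 in these 4 comparisons.

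Further genes of the same pathways were taken from lists of textbook roles. Of 34 lysosomal genes known as TFEB targets, 18 were higher in the knockout without antigen (52.9%, against 9.62% of all genes) and 2 lower (5.88%, against 7.25%), with a median of 0.17, against 0.01 for all genes. With antigen alone 12 were higher (35.3%, against 7.7%) and 2 lower (5.88%, against 7.62%). With IL-1β 9 were higher (26.5%, against 7.22%) and 1 lower (2.94%, against 6.55%), and with IL-18 13 were higher (38.2%, against 9.89%) and 1 lower (2.94%, against 10.3%). Antigen lowered 23 of the 34 in the knockout (67.6%, against 34.6% of all genes) and raised 8 (23.5%, against 33.8%). In WT it lowered 21 (61.8%, against 34.5%) and raised 7 (20.6%, against 33.5%). The difference of responses was called for 7, all lower in the knockout (20.6%, against 4.6%). Ctsl, a cathepsin, had the largest of these, at 1645 ± 119 CPM with antigen and 3057 ± 341 CPM without in the knockout, and 1448 ± 102 CPM and 1969 ± 87.2 CPM in WT (difference -0.45 ± 0.11, adjusted p 0.0156). Atp6v0d2, a proton pump subunit, had the largest fall of the list with antigen (-3.88 in the knockout, -4.04 in WT).

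Of 38 further genes of mTORC1 and amino acid sensing, 18 rose (47.4%, against 33.8% of all genes) and 12 fell (31.6%, against 34.6%) with antigen in the knockout. In WT 20 rose (52.6%, against 33.5%) and 12 fell (31.6%, against 34.5%). The difference of responses was called for none by edgeR (median 0.00, with 2 higher and 4 lower at an unadjusted p under 0.05). Ddit4, an inhibitor of mTORC1 induced by stress, rose to 13.9 ± 1.27 CPM with antigen in the knockout, against 1.45 ± 0.234 CPM without (3.26). In WT it rose to 19.3 ± 2.08 CPM, against 2.97 ± 0.495 CPM (2.69). Of the sestrins, inhibitors of mTORC1 at low leucine, Sesn2 rose (2.03 in the knockout, 1.89 in WT) and Sesn1 fell (-2.43, -2.09). Deptor, another mTORC1 inhibitor, fell as well (-2.31, -2.49). Without antigen 1 of the 38 was higher in the knockout (2.63%, against 9.62%) and 3 lower (7.89%, against 7.25%), among the lower ones Ddit4 (-1.03).

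Of 24 other autophagy genes tested, 9 rose (37.5%, against 33.8% of all genes) and 7 fell (29.2%, against 34.6%) with antigen in the knockout. In WT 11 rose (45.8%, against 33.5%) and 7 fell (29.2%, against 34.5%). Bnip3, a mitophagy receptor induced by low oxygen, rose by 2.67 in the knockout and 2.78 in WT. Wdr45, a relative of the WIPI proteins, fell by -1.02 and -0.77. Bnip3l, the receptor related to Bnip3, was at 202 ± 5.84 CPM with antigen and 344 ± 33.9 CPM without in the knockout, and 212 ± 2.29 CPM and 267 ± 4.76 CPM in WT (difference of responses -0.44 ± 0.07, adjusted p 5.88e-05). Without antigen Bnip3l was higher in the knockout (0.37 ± 0.05), as were 2 more of the 24 genes (12.5%, against 9.62%). Of 9 genes of calcineurin and of kinases or phosphatases that act on TFEB, the calcineurin subunit Ppp3cc rose (1.11 in the knockout, 1.09 in WT) and Ppp3ca fell (-0.90, -0.86) with antigen. The difference of responses was called for 1 of the 9, Ppp3r1 (-0.25; 11.1% lower, against 4.6%).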

How the data were processed

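RNA extracted with Trizol was made into poly(A) libraries, per the labels' protocols. The deposited table holds raw counts per Ensembl gene, whole numbers with no scaling, for 24 libraries, 1 column each. Per the submitters' processing notes, fastp was used and the build was GRCm39; the aligner, the counter, the annotation and the strand setting are not given in the sources used here. Groups came from sample titles. Genes were kept with filterByExpr in edgeR 4.0.16 (R 4.3.3; 14099 genes, 99.9% of counts), scaled with TMM factors and fitted in a robust quasi-likelihood model of the 24 libraries with a term for each of the 8 groups (16 residual degrees of freedom, common biological coefficient of variation 5.01%). Adjusted p-values throughout are Benjamini-Hochberg values of edgeR's quasi-likelihood test over all genes of a comparison. Replicate pairs differed by 1.45 to 15.9 times the sampling noise (chi-square per degree of freedom, 24 pairs), so none was merged. The script was tested on simulated counts.

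The 53 genes and the further gene lists were chosen with earlier results of these data known. Any of the 53 could be named, with values per library for Tfeb, Tfe3, Mitf, Sqstm1, Map1lc3b and for genes called between genotypes or with an absolute log2 fold change of at least 0.4 with antigen; of each further list, up to 4 called genes of largest change. Transcript lengths came from GENCODE vM21, promoters from RefSeq. Alternatives were DESeq2 1.42.0 (size factors, and Wald test), no filter, a replicate block, a fit on the compared groups only, and each library left out.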

Additional observations from a re-analysis of the deposited data

Results flagged for a closer look

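The antigen response differed between knockout and WT co-cultures, by the test of the difference itself, in 12 of the 53 genes. On the log2 scale the knockout response minus the WT response was -0.62 for Map1lc3a (adjusted p 0.00529), -0.39 for Mitf (0.000204), -0.39 for Wipi1 (0.00313), -0.36 for Tfeb (0.0405), -0.34 for Gabarapl1 (0.000773) and -0.29 for Pink1 (0.022). It was -0.29 for Atg2a (adjusted p 0.00576), -0.26 for Calcoco1 (0.022), -0.25 for Tecpr1 (0.0148), -0.21 for Wipi2 (0.0464), -0.21 for Atg12 (0.0317) and -0.16 for Tax1bp1 (0.0113). The test was edgeR's quasi-likelihood test with Benjamini-Hochberg adjustment over all genes. These terms share the 6 libraries without antigen with the genotype comparison of those libraries, where Tfeb, Mitf, Map1lc3a, Gabarapl1, Atg12, Tax1bp1 and Tecpr1 were higher in the knockout, and the 6 libraries with antigen alone with that comparison, where Mitf, Wipi1, Map1lc3a, Atg2a and Pink1 were lower in the knockout.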

How the results depend on the processing

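Of 160 member results called, 109 kept their call under all alternatives. Among 2121 alternative values of the 160, none changed sign and 267 lost the call. With median-of-ratios scaling the all-gene median shifted by at most 0.0122 (log2). With only the compared groups in the fit, members called fell from 16 to 10 (knockout against WT, no antigen), 8 to 5 (antigen) and 12 to 5 (difference of antigen responses), and for IL-18 added to antigen in the knockout from 1 to 0, with 0 of all genes. That fit called 46 of all genes for IL-1β and 2 for IL-18 in WT. With no filter, IL-1β gave 1 member and 287 of all genes in the knockout and 1 and 79 in WT, and IL-18 gave 2 and 302 in the knockout and 2 of all genes in WT. DESeq2's Wald test called 44 of all genes for IL-1β and 237 for IL-18 in the knockout, and 1 for IL-18 in WT. The smaller fits hold fewer samples, and their filter, scaling and estimate of spread differ as well. Causes of the changed counts were not tested.

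The labels do not say what a replicate number marks. Deviations of same-numbered libraries correlated with r of -0.0452 to 0.276 (84 pairs, median 0.0729, 30 over 0.1), against a median of -0.0449 for other pairs, and 19 of 24 libraries correlated best with their own number. All 28 pairs of number 2 had r of 0.0524 to 0.2763, which hints at a shared replicate effect, while the pairs of 1 and 3 reached down to -0.0452 and -0.0118. Since not every pair exceeded 0.1, the fit reported here has no replicate block, but that rule is not a test of pairing. The counts of all genes called for IL-1β in both genotypes and for IL-18 in the knockout depended on this choice. The replicate block called 19 members rather than 16 for knockout against WT without antigen and 15 rather than 12 for the difference of responses. For IL-1β it called 1 member (Fnip2) and 422 of all genes in the knockout, and 1 member (Plekhm1) and 102 of all genes in WT, and for IL-18 274 of all genes in the knockout and 1 in WT.

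Leaving out single libraries gave these ranges of members called, with all genes in brackets. For knockout against WT they were 14 to 21 (4567 to 4971) on average, 8 to 20 (1651 to 2624) without antigen, 3 to 9 (1642 to 1939) with antigen, 4 to 5 (1321 to 1724) with IL-1β and 6 to 12 (1867 to 2562) with IL-18. For antigen they were 38 to 42 (9141 to 9414) in the knockout, 38 to 44 (9189 to 9271) in WT and 6 to 18 (819 to 1697) for the difference. For IL-1β they were 0 to 1 (1 to 284) in the knockout and 0 (2 to 7) in WT, and for IL-18 0 to 1 (0 to 233) in the knockout and 0 (0 to 1) in WT.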
